A study of Mus musculus with 12 samples.

Results

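Transcripts of the cortical hem and the choroid plexus were followed over 12 Affymetrix expression arrays from mouse dorsal forebrain. The set held 8 genes: Ttr, Folr1, Kl, Clic6 and Enpp2 for the choroid plexus and its secretions, and Lmx1a, Otx2 and Msx1 for the transcription factors of the dorsal midline. Members were taken by name, as every probe set whose platform annotation gave 1 of these symbols. The set and the gene lists used below were chosen with earlier results of these data known. Of the 8 genes 7 had a probe set, 13 probe sets in all of the 45101 on the array. Enpp2, which encodes the lysophospholipase autotaxin, had no probe set under that symbol in the annotation used and was not analysed here. A gene entered the tests where a probe set exceeded a log2 value of 4 on at least 3 arrays, which 5 members (Ttr, Clic6, Folr1, Otx2 and Msx1) of the 11449 tested genes did, while Kl and Lmx1a did not.

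The cortical hem is the medial edge of the embryonic cerebral cortex, a source of Wnt and BMP signals next to the epithelium that becomes the choroid plexus. The choroid plexus lies in the brain ventricles, secretes cerebrospinal fluid and makes transthyretin in very large amounts. The hem thus belongs to the edge of the embryonic tissue only, while the choroid plexus is a neighbour of the tissue dissected at both stages. How much of either was in a sample was not tested.

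The study asked which genes depend on Kat6b, a histone acetyltransferase gene also named Qkf, in the adult dorsal cerebral cortex and in the embryonic dorsal telencephalon. All mice were of the 129/Sv strain, either wild type or homozygous for a gene-trap allele of Qkf (gt/gt), and each of the 4 groups held 3 arrays. The adult wild types, all male by label, were 155, 112 and 101 days old, and the adult mutants, also male, 155, 112 and 99 days old, each a separate mouse by its number. The embryos were taken on the day of gestation labelled E12.5 from 2 crosses of different parents, and their sex was not labelled. The first cross gave wild type 1 and mutant 1, and the second gave wild types 2 and 3 and mutants 2 and 3. The labels do not tell whether RNA of 1 embryo or of several went onto an embryonic array. The label of embryonic mutant 1 carries a later date stamp than those of the other 5 embryos, which include wild type 1 of the same cross.

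Values are log2 expression values after GCRMA, a background correction that uses probe sequence. Every array had the same floor of 2.19, where 28.6% to 29.8% of its values lay, and array medians ran from 3.64 to 3.74. With 3 arrays a group the precision is limited, and it differed between genes with their spread over the arrays. Kat6b was lower on every mutant array than on every wild-type array of its stage, with means of 9.58 and 7.11 in adult cortex and 11.37 and 7.06 in embryos (n = 3 each). The adult arrays carried markers of cortical neurons, with Camk2a between 12.2 and 13.0, and the embryonic arrays carried markers of dorsal progenitors, with Neurog2 between 11.2 and 12.2.

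Ttr, which encodes the thyroid hormone and retinol carrier transthyretin, was present on every array and set 1 adult and 2 embryos apart from the rest. On adult arrays its main probe set read 9.07, 6.78 and 9.18 in wild types 1 to 3 and 8.34, 7.69 and 15.16 in mutants 1 to 3. Adult mutant 3 lay 6.82 log2 units above the median of the other 5 adults, a 113-fold higher value, while mutants 1 and 2 lay inside the wild-type range. Its level there was above that of every embryo. The embryonic wild types read 10.78, 13.83 and 13.85 and the embryonic mutants 10.78, 13.53 and 14.06. Both embryos of the first cross were low and all 4 of the second cross were high, whatever the genotype.

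The other 3 probe sets of Ttr set the same arrays apart. On probe set 1451580_a_at, whose name unlike the others carries no mark for probes shared with other sequences, adult mutant 3 reached 13.86, where the other 5 spanned 5.27 to 7.17, and the first-cross embryos at 8.53 and 8.10 against 11.55 to 12.52 in the second cross. The step from the other adults to mutant 3 was 6.82 to 7.75 log2 units over the 4 probe sets. As these are whole-tissue samples, more cells of a type and more RNA per cell cannot be told apart here or below.

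**Figure D1:**
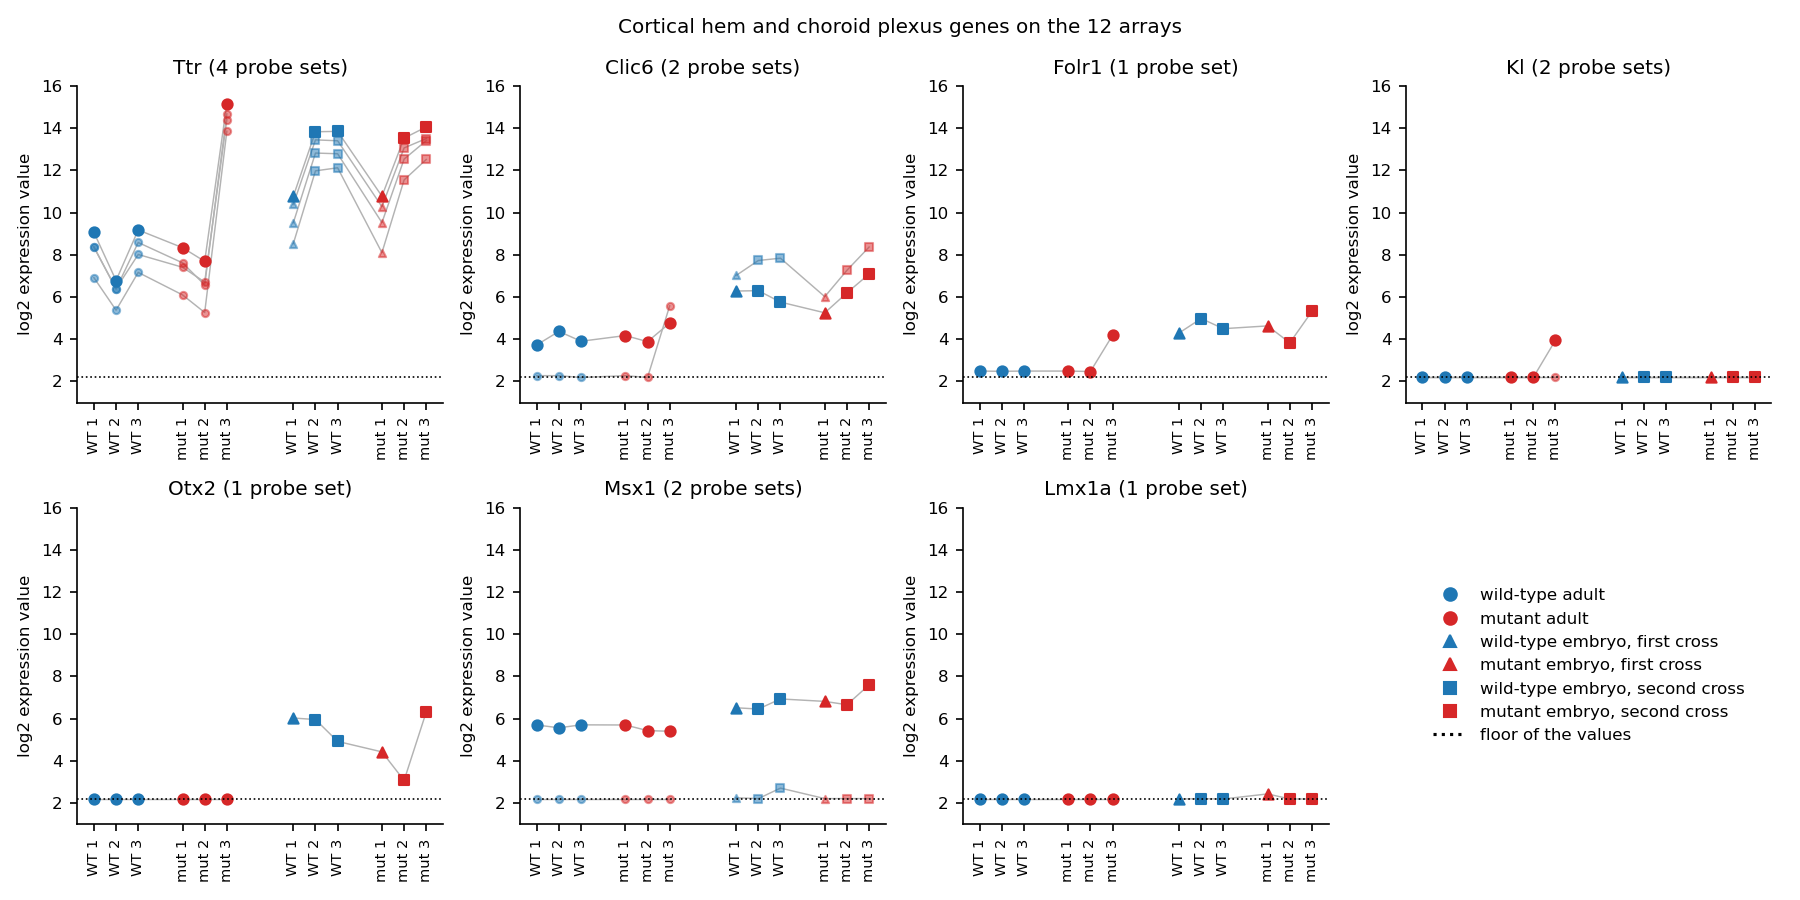
Log2 expression value (vertical axis) of each probe set of 7 genes on the 12 arrays (horizontal axis), with large points for the probe set used in the tests, small ones for a gene's other probe sets and grey lines joining 1 probe set within a stage. Ttr reads 15.16 on adult mutant 3 and 6.78 to 9.18 on the 5 remaining adults, and 10.78 on both first-cross embryos (triangles) against 13.53 to 14.06 on the second-cross embryos (squares).

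Clic6, a gene of the intracellular chloride channel family that is abundant in choroid plexus epithelium, had 2 probe sets that differed in what they showed. The main probe set read 3.74, 4.37 and 3.91 in adult wild types, 4.18, 3.89 and 4.77 in adult mutants, 6.29, 6.30 and 5.76 in embryonic wild types and 5.25, 6.20 and 7.09 in embryonic mutants. Adult mutant 3 was the highest adult by a small margin and lay below every embryo. The second probe set (1454866_s_at) was at or near the floor in 5 adults, between 2.19 and 2.28, and read 5.59 in adult mutant 3. It read 7.02, 7.73 and 7.84 in embryonic wild types and 6.02, 7.27 and 8.37 in embryonic mutants, so that the first cross lay below the second there.

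Folr1, the folate receptor that carries folate across the choroid plexus epithelium, read 2.49, 2.48 and 2.49 in adult wild types and 2.49, 2.47 and 4.19 in adult mutants. The other 5 adults were thus within 0.02 log2 units of each other, near the floor, and mutant 3 stood alone. Embryos read 4.30, 4.98 and 4.50 as wild types and 4.63, 3.83 and 5.32 as mutants, with the genotypes and the crosses overlapping.

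Kl, which encodes klotho, a co-receptor for the hormone FGF23 made in kidney and choroid plexus, was at the floor on 11 of 12 arrays. Its probe set 1423400_at read 3.95 on adult mutant 3 and 2.19 elsewhere, the embryos included. A second probe set was at the floor on all 12 arrays, adult mutant 3 among them. Kl did not enter the tests.

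Among the transcription factors, Otx2, which is needed for the choroid plexus and is also active in the retinal pigment epithelium and other parts of the embryonic brain, was at the floor of 2.19 in all 6 adults, mutant 3 included. The embryonic wild types read 6.03, 5.95 and 4.92 and the embryonic mutants 4.42, 3.07 and 6.31. Values thus spread over more than 3 log2 units between embryos, with mutant 2 lowest and mutant 3 highest, both from the second cross.

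Msx1, a homeobox gene induced by BMP signals in the dorsal midline, varied little. Adult values lay between 5.40 and 5.70, with adult mutant 3 the lowest at 5.40. Embryonic wild types read 6.51, 6.45 and 6.93 and embryonic mutants 6.81, 6.66 and 7.60. A second probe set of Msx1 was at 2.21 on 10 arrays and reached 2.71 in embryonic wild type 3.

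Lmx1a, the homeobox gene that marks the cortical hem, was at the floor on 10 of 12 arrays. It read 2.43 in embryonic mutant 1 and 2.20 in embryonic wild type 2, so its single probe set gave no usable level in tissue labelled as dorsal telencephalon. The hem side of the set therefore rests on Msx1 and Otx2, neither of which is restricted to the hem.

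Mutants and wild types of the same age were compared first, with limma over all 11449 genes and 12 arrays. In adult cortex 0 of the 5 members were called, at 0.0524% of all genes called (6 genes), and 0 had an unadjusted p under 0.05. The largest difference was that of Ttr, a log2 difference of 2.05 (SE 1.76, 95% interval -1.82 to 5.93, adjusted p = 1), from 8.34 ± 1.35 in wild types to 10.40 ± 4.14 in mutants (SD, n = 3 each). It became -0.33 without mutant 3, and 0.38 when limma weighted arrays by their fit. Folr1 differed by 0.56 with mutant 3 and by -0.0071 without it. The values for Clic6 were 0.27 (interval -0.60 to 1.15) and for Msx1 -0.15 (interval -0.63 to 0.34).

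In the embryos 0 of 5 members were called, beside 0.0349% of all genes (4 genes), and again 0 had an unadjusted p under 0.05. Ttr differed by -0.03 (SE 1.76, interval -3.90 to 3.84), with means of 12.82 ± 1.77 and 12.79 ± 1.76 (SD, n = 3 each). Otx2 had the largest difference of the 5, with 5.63 ± 0.62 in wild types and 4.60 ± 1.63 in mutants (SD, n = 3 each; log2 difference -1.03, SE 0.61, interval -2.39 to 0.32, adjusted p = 1). It ran from -1.89 without mutant 3 to -0.27 without mutant 2. Msx1, with the lowest unadjusted p of the 5, differed by 0.39 (interval -0.10 to 0.88), Clic6 by 0.07 and Folr1 by 0.0023. These intervals are wide, and they do not show that mutants and wild types were alike.

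Whether the mutation acted differently on adults and embryos was tested as an interaction. By limma that difference was called for 0 of 5 members and for 0% of all genes, while 630 genes had an unadjusted p under 0.05 and none of those was a member. Its log2 values were 2.08 for Ttr (interval -3.39 to 7.56), 1.03 for Otx2, 0.56 for Folr1, 0.21 for Clic6 and -0.54 for Msx1, with adjusted p between 0.936 and 0.973.

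Wild-type adult cortex and wild-type embryonic telencephalon were then compared. By their labels the adult arrays form a set separate from the embryonic arrays, so stage and array set cannot be told apart. All 5 tested members were lower in adults, in a comparison where 81.4% of all genes were called, so that the count tells little about the members. Otx2 moreover passed the filter only through the embryonic arrays, and Folr1 through embryonic arrays and adult mutant 3. Ttr was 22.3-fold lower in adults (log2 difference -4.48, SE 1.76, adjusted p = 0.034), Clic6 4.32-fold lower (adjusted p = 0.00043) and Msx1 1.97-fold lower (adjusted p = 0.0016). Otx2 differed by -3.44 and Folr1 by -2.10 on the log2 scale, with the adult side at or near the floor. The Ttr call was lost without adult wild type 1 (adjusted p = 0.051), adult wild type 2 (0.11), embryonic wild type 2 (0.095) or embryonic wild type 3 (0.095).

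Other genes of choroid plexus epithelium were read on the same arrays to see which accompanied Ttr on adult mutant 3. A list of 40 such genes, which leaves out the 8 above, had 39 with a probe set and 20 past the filter. Adult mutant 3 exceeded each other adult by at least 1 log2 unit in 0.114% of all genes, that is in 13 genes, against 0 to 3 genes for each of the other adult arrays. Ttr and Folr1 were among the 13, as were 3 of the 20 choroid genes, Sostdc1, Kcne2 and Calml4. The remaining 8 were Gm17750, Cep128, Ccdc180, Lyz1, Lyz2, Sfi1, Cst6 and Hsf4. Sostdc1, Kcne2 and Calml4 exceeded a log2 value of 4 only on adult mutant 3 and the second-cross embryos. They thus passed the filter only through arrays where they were high. The Lyz1 and Lyz2 lysozyme genes are near-identical and can share probes. Of the 13 hem signal genes past the filter, none was among them.

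Sostdc1, which encodes a secreted antagonist of BMP and Wnt signals, read 5.65 on this array and 2.25 to 2.49 on the other 5. Kcne2, a potassium channel subunit of the apical membrane of the choroid plexus, read 5.28 against 2.40 to 2.63. Calml4, a calmodulin-like gene, read 4.90 against 2.24 to 2.50. The rest of the tested choroid genes did not stand 1 log2 unit above every other adult. Some were highest there by less, such as Ace (5.95 against 5.05 to 5.49). Slc12a2, an ion cotransporter gene, was lowest there, at 9.58 against 9.69 to 9.94. Htr2c (7.27 against 6.19 to 7.59), Igfbp2 (8.53 against 8.24 to 8.66) and Slc4a2 (5.98 against 5.32 to 6.37) lay inside the range of the other adults. Of the 19 choroid genes below the filter, Kcnj13, another apical potassium channel, read 5.31 against 2.75 to 3.12, and Lbp read 5.13 against 2.83 to 3.66. Aqp1, the water channel of the epithelium, read 3.12 on that array and at most 2.24 in the other adults. Of the 28 probe sets of these 19 genes 15 were at the floor on adult mutant 3, that of Trpv4, a cation channel of the epithelium, among them.

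The list mean of the 20 choroid genes was 6.59 on adult mutant 3 and 5.77 to 5.97 on the other adults, and that of the 5 members was 6.34 against 4.28 to 4.69. The choroid mean includes Sostdc1, Kcne2 and Calml4, which passed the filter only through arrays where they were high. The member mean includes Ttr. Neither mean is therefore evidence apart from those genes. For the lists of other tissues the distance was smaller, a contrast that carries the same limit. The mean on that array was 5.77 for hem signals (5.66 to 5.79 on the other adults), 5.01 for multiciliated cells (5.06 to 5.20), 5.30 for meninges and fibroblasts (5.05 to 5.34), and 5.55 for hippocampus (5.49 to 5.74). The mean of the 3 tested retinal pigment epithelium genes was above the other adults, 5.49 against 5.11 to 5.38. Rlbp1 read 8.14 against 6.66 to 7.54, while Mitf read 6.13 against 6.07 to 6.47 and Dct was at the floor in all adults. The endothelial mean was also above the other adults, 5.81 against 5.43 to 5.78. Means below the other adults were those of the ventral telencephalon (7.11 against 7.42 to 7.75), thalamus (4.56 against 4.72 to 5.04) and myelin (8.62 against 8.67 to 9.23) lists. The multiciliated mean given above was also below that of every other adult. The part of these tissues in the members' values on that array was not tested. Between adult mutants and wild types 0 of the 20 choroid genes were called by limma. Slc4a2, a bicarbonate and chloride exchanger, was alone in having an unadjusted p under 0.05, at a log2 difference of 0.52, followed by Cab39l (0.30), Sostdc1 (1.17), Trpm3 (0.47), Car12 (0.55) and Igfbp2 (-0.16). The list median was 0.13 beside 0.03 over all genes. Among hem signals 0 of 13 were called and 0 had an unadjusted p under 0.05.

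**Figure D2:**
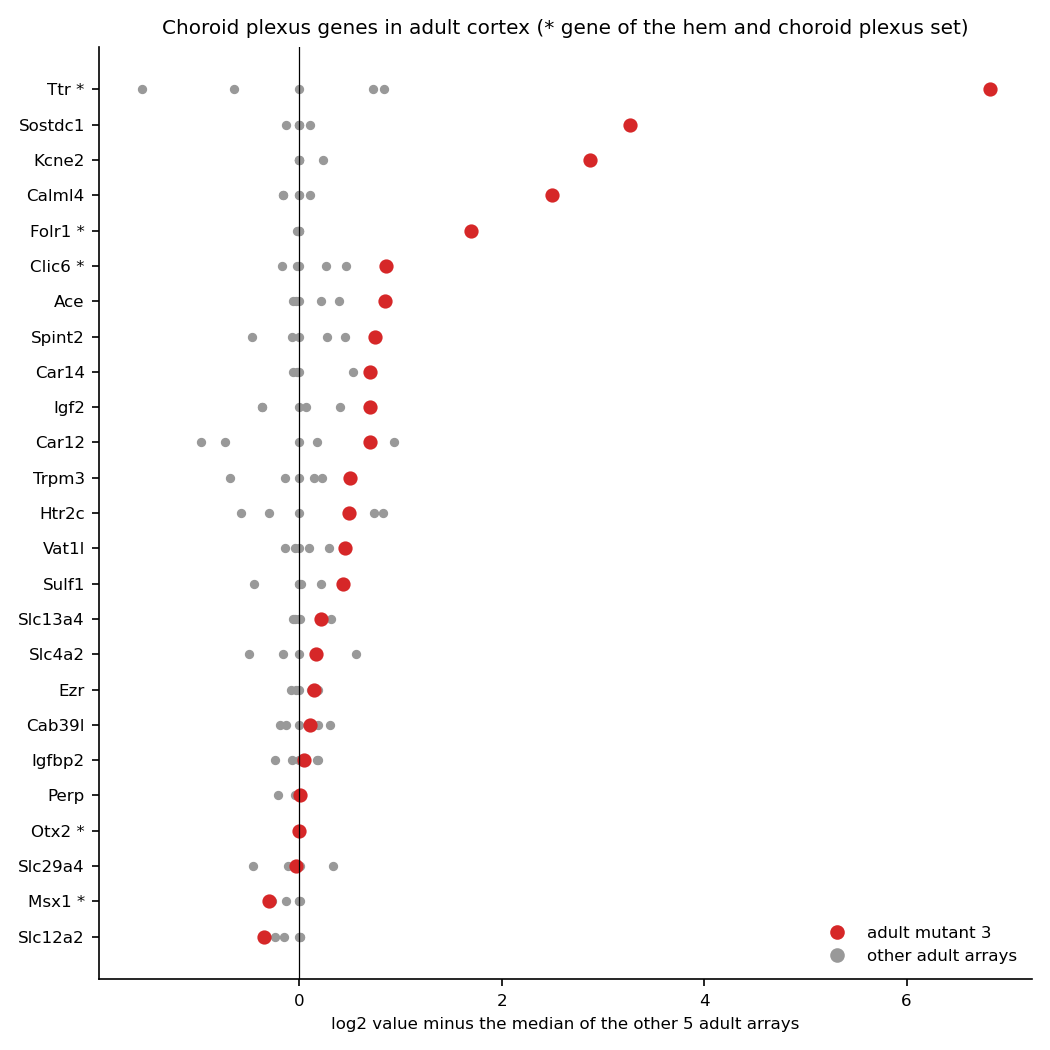
Log2 value on each adult array minus the median of the 5 adults other than mutant 3 (horizontal axis), for the tested choroid plexus genes and the 5 tested genes of the hem and choroid plexus set (starred, vertical axis). Red points are adult mutant 3 and grey points the other adults. Ttr lies 6.82 units to the right, Sostdc1 3.27, Kcne2 2.88, Calml4 2.50 and Folr1 1.70, while Otx2 and most other genes lie near the grey points.

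The genes whose adult values went most closely with Ttr over 6 arrays, among 737 genes whose values spanned at least 1 log2 unit, were Hsf4 (Pearson r 0.996), Lfng, Abhd14b, Sema3f, Ccdc180, Kcne2 (0.964), Cep128, Sostdc1, Ltk and Calml4 (0.930). All 10 had their highest adult value on mutant 3, which sets these correlations. Within the set, Folr1 and Ttr gave r = 0.956 over the 6 adults (exact permutation p = 0.0194, two-sided, adjusted 0.0778 over the 4 genes) and rho = 0.928 (exact p = 0.0167, adjusted 0.0667). Without the 2 arrays farthest from the Ttr median, adult mutant 3 and wild type 2, r was 0.861 over Folr1 values that differ by 0.02 log2 units or less. Kl gave r = 0.954 (exact p = 0.167), which rests on 1 array. Clic6 gave r = 0.631 (exact p = 0.185) and -0.34 without those 2 arrays, and Msx1 gave -0.448 (exact p = 0.433) and 0.851.

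Stretches upstream of start sites were available in RefSeq (GRCm38.p6) for Kl and for 3 of the choroid genes that were high on adult mutant 3. They are shown because these genes stood out together on 1 array. Each gives the 120 bases before the annotated start, 5′ to 3′ on the gene's strand, with capitals for the letters TATAAA.
Kl (chr5:150952487-150952606, plus strand): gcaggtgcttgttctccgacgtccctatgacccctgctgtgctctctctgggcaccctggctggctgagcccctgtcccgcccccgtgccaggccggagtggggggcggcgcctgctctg
Kcne2 (chr16:92292269-92292388, plus strand, the first of its starts): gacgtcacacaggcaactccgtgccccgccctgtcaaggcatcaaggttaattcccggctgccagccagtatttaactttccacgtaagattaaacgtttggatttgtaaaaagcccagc
Calml4 (chr9:62857984-62858103, plus strand): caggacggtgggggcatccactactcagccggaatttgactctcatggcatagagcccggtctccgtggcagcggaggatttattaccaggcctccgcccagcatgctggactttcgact
Kcnj13 (chr1:87394730-87394849, minus strand): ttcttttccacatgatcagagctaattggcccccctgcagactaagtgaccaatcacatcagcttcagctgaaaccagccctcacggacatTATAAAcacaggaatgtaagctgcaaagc
Windows of 250 bases before the start were searched on both strands for TAATCC, the core letters bound by Otx-type homeodomains, and for TATAAA. On the opposite strand the first motif can share its end with the second. Kcnj13 held TATAAA 29 bases before its start, and 12.4% of 32851 promoters held it somewhere in that window on either strand. Neither motif was in the windows of Kl, Kcne2 and Calml4, and TAATCC was in 6.25% of all promoters. Of the starts of Otx2 itself, 1 had TAATCC on the opposite strand 211 bases upstream and another had TATAAA 192 bases upstream, both outside the last 120 bases. The search gives letters in a window and says nothing on binding. In RefSeq gene order Kcne2 and Clic6 lie on the same chromosome with 5 protein-coding genes between them.

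The embryonic arrays were next compared by cross, with genotype and stage in the model. Ttr was 8.23-fold higher in the second cross (13.82) than in the first (10.78), a log2 difference of 3.04, and the 2 crosses did not overlap. In the fit over 12 arrays the call was not reached (SE 1.67, interval -0.67 to 6.75, adjusted p = 0.40), and adult mutant 3 widened the spread that this fit shares. With the 6 embryos alone the SE was 0.16 (interval 2.61 to 3.47, adjusted p = 0.020), and without adult mutant 3 the SE was 0.58 (adjusted p = 0.021). Wild type 1 and mutant 1 of the first cross both read 10.78. Their labels carry different date stamps, and wild type 1 shares its stamp with the second cross. The part of the date in these values was not tested. The parents differ between the crosses, so that litter and cross cannot be told apart.

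The remaining members differed by less. Over the 12-array fit 0 of 5 members were called and 0 had an unadjusted p under 0.05, where 4.45% of all genes were called. Clic6 differed by 0.57 (SE 0.40, adjusted p = 0.51), and by 1.28 on its second probe set (adjusted p = 0.47), where the crosses did not overlap. Msx1 differed by 0.25, Folr1 by 0.19 and Otx2 by -0.16, each with an interval that spans 0. Both first-cross embryos lay at least 1 log2 unit below every second-cross embryo in 0.489% of genes (56), and of the members Ttr was among them. They lay at least 1 unit above in 0.367% of genes (42), with 0 members among those.

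**Figure D3:**
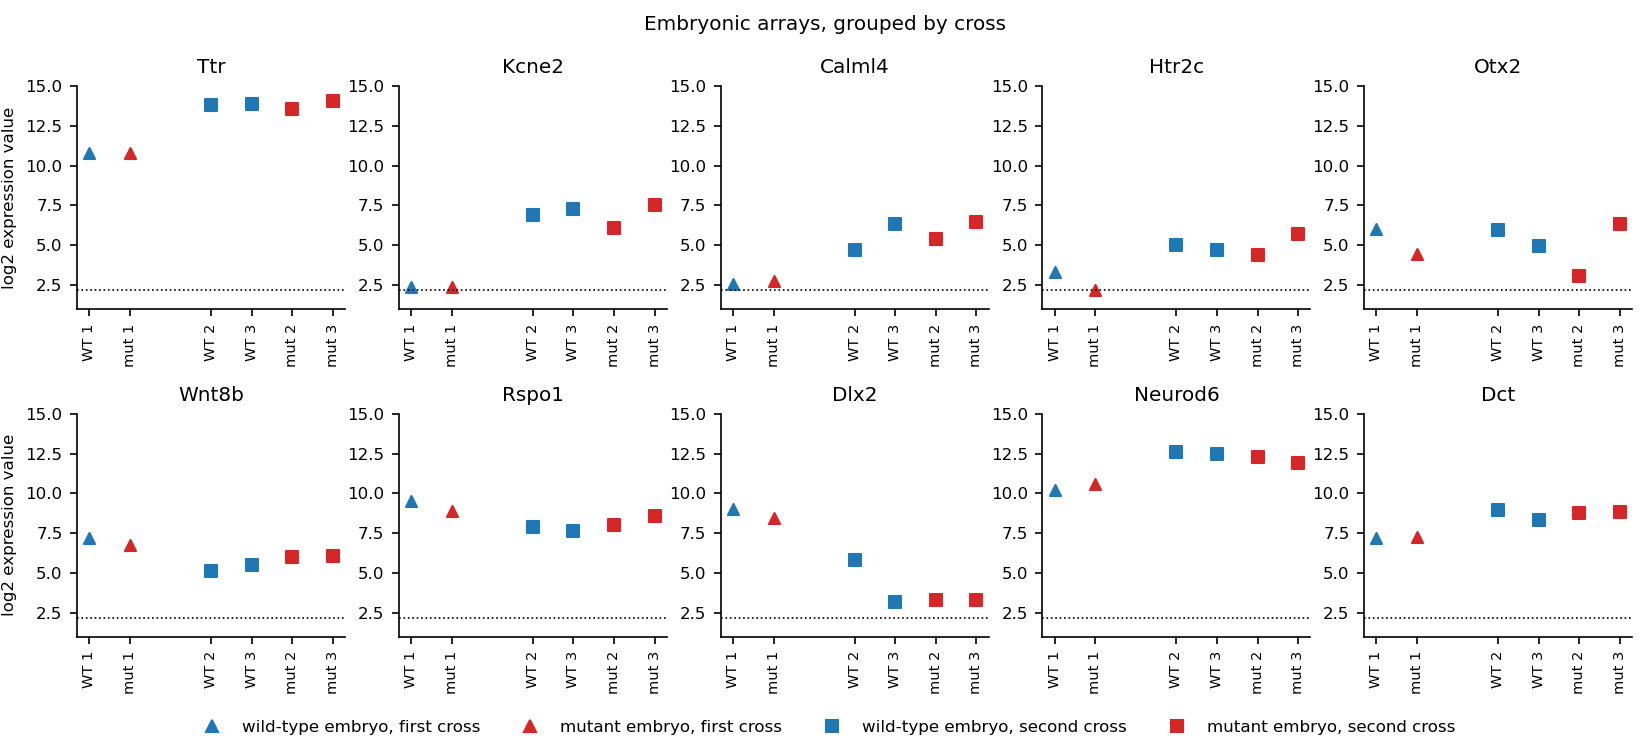
Log2 expression value (vertical axis) on the 6 embryonic arrays (horizontal axis), with triangles for the first cross, squares for the second, blue for wild type and red for mutant; the dotted line is the floor. Ttr, Kcne2, Calml4 and Htr2c are lower in the first cross, Wnt8b, Rspo1 and Dlx2 are higher there, and Otx2 overlaps.

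Some choroid plexus genes were higher in the second cross, as Ttr was. Of the 20 tested, 5 were called higher in the second cross and 0 were called lower, where 4.45% of all genes were called (314 higher and 196 lower). In sign 16 were positive and 4 negative, with a list median of 0.28 beside 0.03 over all genes. Slc12a2, a sodium, potassium and chloride cotransporter, lay the other way, at -0.23, as did Cab39l (-0.23), Perp (-0.24) and Slc13a4 (-0.59), none of them called. Kcne2 was at 2.40 in both first-cross embryos and at 6.91, 6.11, 7.29 and 7.52 in the second (log2 difference 4.56, adjusted p = 0.0043). Calml4 read 2.57 and 2.78 in first-cross embryos against 4.67 to 6.47 in second-cross embryos (3.04, adjusted p = 0.035). Kcne2 and Calml4 passed the filter only through the second-cross embryos and adult mutant 3, so their place among the 20 depends on those arrays. Htr2c, the serotonin receptor of choroid plexus epithelium, was at 3.29 and 2.19 and at 4.40 to 5.72 (2.22, adjusted p = 0.023). Slc29a4, a monoamine transporter gene, and Trpm3, a cation channel gene, rose by 0.93 each, and Car14, a carbonic anhydrase, was next at 0.67 (adjusted p = 0.20). With the 6 embryos alone Kcne2 passed (adjusted p = 0.043) and Calml4 (0.12), Htr2c (0.16), Slc29a4 (0.16) and Trpm3 (0.083) did not. That fit had 3 residual degrees of freedom and called 71 genes, against 510 over all arrays. Without embryonic wild type 1 the 12-array fit called 185. With each of the 12 arrays left out in turn, the call of Kcne2 was lost without embryonic wild type 1 alone (adjusted p = 0.085), and that of Htr2c without either first-cross embryo. The call of Slc29a4 was lost in 5 of the 12 cases, that of Calml4 in 7 and that of Trpm3 in 8, always with a log2 difference above 0.

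Genes for the signals of the hem were read in the same way. Of 13 tested, 0 were called higher and 2 were called lower in the second cross, where 4.45% of all genes were called. In sign 4 were positive and 9 negative, with a list median of -0.32. Wnt8b, a Wnt ligand of the medial wall, read 7.22 and 6.76 in the first cross and 5.13 to 6.07 in the second (log2 difference -1.32, adjusted p = 0.0059). Rspo1, which encodes a secreted enhancer of Wnt signalling, read 9.51 and 8.92 against 7.62 to 8.56 (-1.19, adjusted p = 0.039, and 0.054 without adult mutant 3). With the embryos alone the adjusted p was 0.17 for Wnt8b and 0.20 for Rspo1. With arrays left out in turn, the call of Wnt8b was lost without embryonic wild type 1 alone (0.062) and that of Rspo1 in 9 of 12 cases. Rspo3 (-0.78, adjusted p = 0.070), Id3 (-0.84), Rspo2 (-0.85) and Wnt5a (0.50) were next and were not called. The difference in direction between the choroid and hem lists was itself not tested.

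Markers of neighbouring tissues also moved with the cross. Of 6 ventral telencephalon genes, 5 were called lower in the second cross, with Dlx1 (-5.04), Dlx2 (-4.84), Gad2 (-3.83) and Gad1 (-3.61) the furthest. Dlx2 read 9.04 and 8.43 in the first cross and 3.20 to 5.80 in the second. Of 9 dorsal telencephalon genes 3 were called higher (Neurod6 1.93, Neurog2 0.95, Eomes 0.83). All 3 tested genes of retinal pigment epithelium were called higher (Rlbp1 2.04, Dct 1.50, Mitf 0.70), while Tyr, Tyrp1, Rpe65, Pmel and Best1 reached at most 2.79 on any array. Of 13 genes of meninges and fibroblasts 4 were called higher (Dcn 2.05, Islr 1.65, Col1a2 1.42, Fmod 1.01) and 1 was called lower (Crabp2 -1.12). In the erythroid list 2 of 4 were called lower (Slc4a1 -1.94, Hba-x -0.64), and 1 of 4 thalamic genes was called lower (Lhx9 -0.79). Single genes were called in the multiciliated (Dynlrb2 2.09), myelin (Cldn11 1.81) and adult neuron (Camk2a -2.27, Neurod6 as above) lists, and Reln (0.76) and Ebf2 (-1.07) among Cajal-Retzius genes. Of 7 endothelial and 5 hippocampal genes 0 were called. With the 6 embryos alone Dcn, Neurog2, Eomes, Slc4a1, Dynlrb2 and Cldn11 passed at an adjusted p under 0.05. So did Dlx5, the remaining called ventral gene (-2.08, adjusted p = 0.043). The other called genes named here did not. The part of these tissues in the Ttr difference was not tested.

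**Figure D4:**
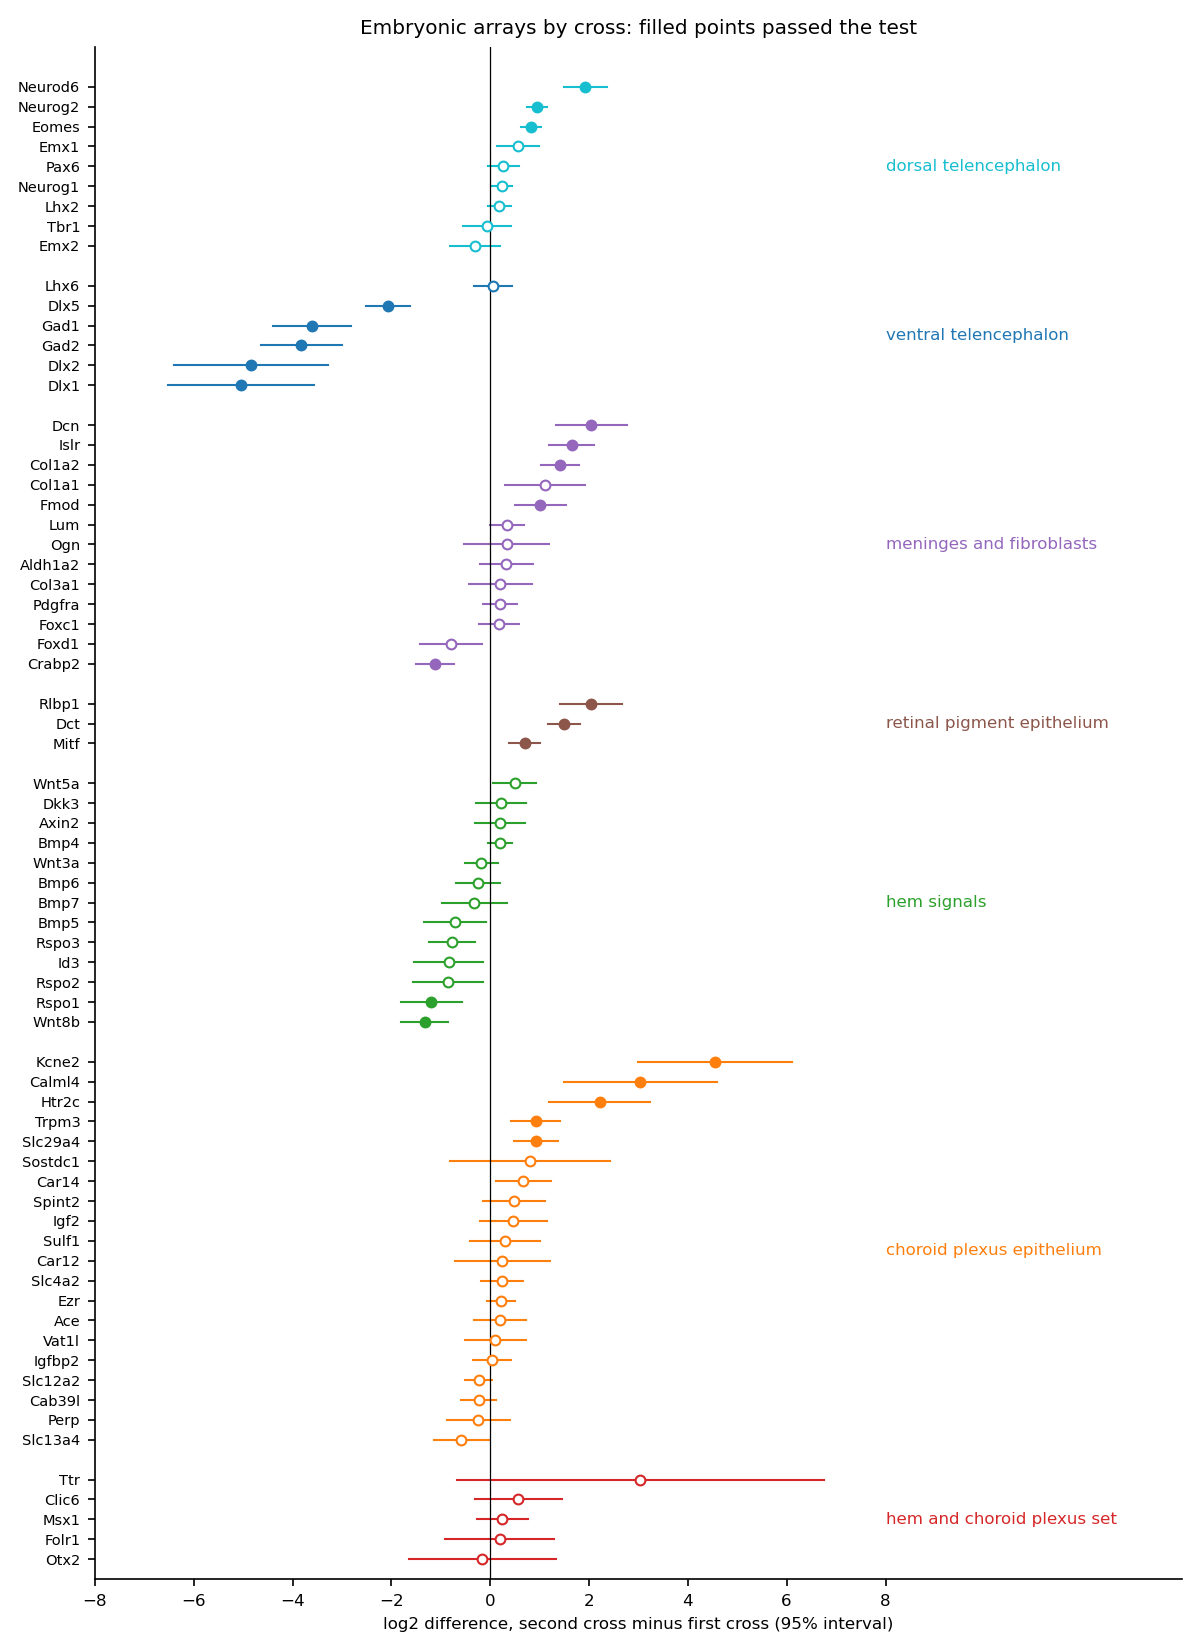
Log2 difference between the second and the first cross (horizontal axis, points with 95% intervals from limma over 12 arrays) for the tested genes of each named list (vertical axis). Filled points passed at an adjusted p under 0.05, which 5 choroid plexus genes did to the right of 0 and 5 ventral telencephalon genes to the left. Ttr, at 3.04, has the widest interval of the hem and choroid plexus set and did not pass in this fit.

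The genes that went most closely with Ttr over the 6 embryos were Nbl1 (Pearson r 0.996), Neurog2, Kcne2 (0.995), Ppp1r1a, Draxin, Slc15a2, Lox, Htra1, Dhrs4 and A930024E05Rik (0.984), among 1824 genes that spanned at least 1 log2 unit. As Ttr falls into 2 clusters by cross, these values describe the step between crosses, and no correlation with the other members was computed.

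Within the second cross, mutant 3 was the highest of all 6 embryos for each of the 5 tested members, by 0.21 log2 units for Ttr and by 0.28 for Otx2. That array was highest for 31% of all genes, for 13 of the 20 choroid genes and for 2 of the 13 hem genes. The mean over the 5 members was 8.08 there, against 6.38 to 7.51 in the other embryos. Kcnj13 read 4.13 on it and 2.65 to 2.90 on the other 5, and Krt18, an epithelial keratin gene, 5.11 against 3.50 to 4.53. The multiciliated list mean was also highest there, at 6.62 against 5.84 to 6.28, with 4 of its 8 genes highest there. Foxj1, the regulator of motile cilia, read 5.64 against 4.04 to 5.15, while Ccdc39 (7.01) and Rfx3 (9.75) were lowest of the embryos there. The endothelial list mean was highest there too, at 6.14 against 5.70 to 6.01, with 3 of its 7 genes highest there. Their part in the level of the members was not tested.

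Between embryonic mutants and wild types 0 of 20 choroid genes and 0 of 13 hem genes were called by limma, with list medians of -0.01 and -0.0021. Perp, a desmosomal membrane gene of the choroid list, was alone in having an unadjusted p under 0.05 (log2 difference 0.80, adjusted p = 0.76), and Bmp4, a BMP ligand, had the lowest p of the hem list (-0.25, adjusted p = 1). Between the wild types of the 2 stages, where 81.4% of all genes were called, 7 of the 20 choroid genes were called lower and 6 higher in adults, among them Car14 (-3.64), Sulf1 (-3.40), Igfbp2 (-2.79), Slc29a4 (-2.44), Ezr (-2.15) and Slc4a2 (-1.43). Of the 13 hem genes 11 were called lower, such as Wnt8b (-3.26), Rspo3 (-2.36), Axin2 (-1.65), Wnt5a (-1.51) and Bmp4 (-0.64), and 2 were called higher, with Dkk3 at 4.39. Against that background these counts tell little about the lists. Wnt8b, Bmp4, Bmp5 and Bmp7 moreover passed the filter only through embryonic arrays, so a lower adult value was built in for them. Slc29a4 exceeded the filter level only on adult wild type 2 and the embryos.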

How the data were processed

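RNA of 12 samples was measured on Affymetrix arrays. The deposited log2 values, 1 per probe set and array, came from GCRMA per the submitters' processing notes, with settings and version not given in the sources used here. Two-cycle amplification preceded labelling, per the labels' protocols. The values were used as deposited, with symbols from the platform annotation brought up to date through RefSeq (GRCm38.p6).

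Of 34945 probe sets with 1 symbol 20292 passed the filter, a log2 value over 4 on at least 3 arrays, and the probe set with the highest mean stood for each gene (11449 genes). Genes were fitted with limma 3.58.1 in R 4.3.3 over 12 arrays, with 4 group means (8 residual degrees of freedom, 7 with the cross) and Benjamini-Hochberg adjustment over all genes at 0.05. All adjusted p-values of genes are limma's. The fit was tested on simulated data. Folds are 2 to the power of the log2 difference, and none is given where a side is near the floor. The members and lists were chosen with earlier results of these data known.

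Named from the lists were up to 6 hem or choroid genes per comparison by lowest p, up to 4 called genes of other lists, and the 10 genes most like Ttr in each stage. Dlx5 and Crabp2 were named besides. Kcnj13, Lbp, Aqp1, Krt18, Foxj1, Ccdc39, Rfx3, the genes given singly on adult mutant 3, and the promoters shown were chosen after their values were seen. The pattern of Lmx1a was planned too and is not given, since it lay at the floor. Correlations were planned for 7 genes in 2 stages, with adjustment over all of them. Only 4 in adults were computed, and their adjustment covers these 4. Those in embryos were not computed.

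Embryos of the same cross share parents per the labels. Their deviations from the group means correlated at 0.51 in the first cross and 0.14 to 0.25 in the second, and at -0.36 to -0.23 between crosses. The adult age pairs correlated at 0.19, -0.01 and 0.27. Alternatives varied the filter, the probe sets, the scaling, the choice of arrays, their weights, limma's variance model and the block. Leaving out arrays for the choroid and hem genes called by cross was added after seeing the data.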

Additional observations from a re-analysis of the deposited data

How the results depend on the processing

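Over the tested alternatives, 0 members were called in either mutant comparison or in their difference, and with age pair and cross as a replicate block the count was also 0, with Ttr at 2.05 in adults (adjusted p = 0.84). Without _s_at and _x_at probe sets 3 members were called between the stages, in place of 5, and with 1 array left out 4 to 5. By cross 1 member, Ttr, was called with the embryos alone, and 0 to 1 with 1 array left out. The correlation of Ttr with Folr1 in adults was 0.966 (exact p adjusted 0.0444) with the mean of the probe sets.

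Signs reversed for several differences, none of them called. Clic6 in embryos was -0.12 with the mean of the probe sets and -0.0088 with array weights. Folr1 in embryos was -0.67 with array weights and -0.17 without the first cross, where the Clic6 stage difference in the mutant effect was -0.34. With 1 array left out, adult Ttr ran from -0.33 to 3.41 and adult Folr1 from -0.0071 to 0.85, and in embryos Ttr ran from -1.05 to 0.98, Clic6 from -0.39 to 0.53 and Folr1 from -0.36 to 0.38. The difference between stages ran from -0.30 to 3.44 for Ttr, -0.26 to 0.66 for Clic6 and -0.0094 to 0.92 for Folr1. By cross Folr1 ran from -0.090 to 0.55, Clic6 from -0.25 to 1.39 and Otx2 from -0.92 to 0.47. In adults the correlation of Ttr with Clic6 ran from -0.753 to 0.877 and with Msx1 from -0.73 to 0.698, both extremes of opposite sign being without adult mutant 3. The cause of these reversals was not tested.

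Genes called over all genes ran from 0 to 6 in adults, and in embryos were 42 with array weights, 18 without the first cross, 12 with every probe set, 7 with either quantile normalization, 1 with the block and 0 with embryos alone. The difference between stages gave 0 to 7. The call of Ttr between wild-type stages was also lost with no filter (adjusted p = 0.096), without probe sets marked _s_at or _x_at (0.063) and with a robust trend (0.057). Values near the floor compress differences of Folr1, Kl, Lmx1a and Otx2.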
